A study of Mus musculus with 4 samples.

Results

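Glycolysis and hypoxia-response genes were examined in 4 mouse oral cancer cell lines. The set holds 38 genes of the 34721 entries in the expression table. They were chosen by name as enzymes and transporters of glycolysis and lactate handling, regulators of glycolytic flux, hypoxia-inducible factor (HIF) genes and genes known to be induced in low oxygen. Identifiers were matched to symbols with the GENCODE M21 annotation, and all 38 genes have an entry.

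The lines came from C57BL/6 mice whose buccal mucosa had been painted with the carcinogen 7,12-dimethylbenzanthracene (DMBA). AOC3 is from the primary oral tumor of mouse 3 and AOC3-LN from a lymph node metastasis of the same animal. AOC11 and AOC11-LN are the corresponding pair from mouse 11. By the methods, tumor cells were grown in DMEM/F12 with fetal bovine serum, passed once under the skin of C57BL/6 mice, and freed of fibroblasts with an isolation kit. No treatment is named for the sequenced cells, and no culture in low oxygen. Messenger RNA of cultured cells was sequenced as paired reads from a strand-marking kit, with 1 library per line. Each group of lines therefore stands for 1 mouse, and a difference between the AOC3 and AOC11 lines cannot be told apart from a difference between these 2 animals. The values are FPKM, which scale fragments to transcript length and library size. Steps between low FPKM values gave estimated depths of 33700000, 28300000, 33900000 and 32400000 fragments in AOC3, AOC3-LN, AOC11 and AOC11-LN. Values well below 1 FPKM thus rest on few fragments.

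Glycolysis splits glucose into pyruvate in the cytosol. Glucose enters through facilitative transporters and is trapped by hexokinase, phosphofructokinase makes the committed step, and lactate dehydrogenase turns pyruvate into lactate, which leaves the cell through monocarboxylate transporters. In low oxygen, prolyl hydroxylases no longer mark HIF alpha subunits for destruction, and HIF then induces most of these enzymes together with genes for blood vessel growth, pH control and collagen modification. Squamous carcinomas are known for high glucose uptake, and staining for Slc2a1 or Car9 protein is used to mark hypoxic tumor regions.

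The cell type markers of the lines were epithelial. All 7 epithelial markers passed the filter of at least 1 FPKM in at least 1 line, with summed levels of 3451, 3494, 2736 and 3052 FPKM in AOC3, AOC3-LN, AOC11 and AOC11-LN. The most abundant of them, Krt18, a keratin of simple epithelia, stood at 1307, 1322, 957 and 1115 FPKM. Krt5, a basal keratin, stood at 499 and 275 FPKM in the AOC3 lines and at 4.99 and 17.0 FPKM in the AOC11 lines. Its partner Krt14 had the reverse order, with 166 and 150 FPKM against 257 and 259. None of the 7 fibroblast, 4 endothelial and 4 T cell markers reached 1 FPKM in any line. The fibroblast markers summed to 0.246, 0.314, 0.496 and 1.05 FPKM, with Col1a1 or Pdgfra the most abundant. The endothelial markers summed to between 0.251 and 0.392 FPKM, and the T cell markers to at most 0.0422 FPKM, with Cd3e, Cd4 and Cd8a at 0 in all 4 lines. Of 4 macrophage markers, Adgre1 was listed at 0 in all 4 lines and Ptprc at 0.064 FPKM or less, whereas Csf1r stood at 0.995, 0.435, 20.8 and 6.01 FPKM and Cd14 at 7.31, 8.55, 6.83 and 6.27 FPKM. The macrophage list thus summed to 8.32, 9.05, 27.6 and 12.3 FPKM. Epcam, Krt18, Krt5, Trp63 and Cd14 were higher in both AOC3 lines than in both AOC11 lines, with a log2 difference of 1.12 for Trp63, and Krt14 and Csf1r were higher in both AOC11 lines. They thus separated the mice as some of the genes below do, and their part in those differences was not tested. In bulk RNA, fewer cells that express a gene and less of its RNA per cell cannot be told apart.

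Of the 38 members, 31 reached 1 FPKM in all 4 lines. The filter kept 37 members and 14165 genes in all, and Slc2a3 was the member below it. A member that passed only through its highest lines had to differ to be kept, which applies to Eno2, Epas1, Egln3, Adm, Ldhb and Car12, each under 1 FPKM in at least 1 line. Summed over the 38 members, levels were 9688, 10430, 9807 and 10098 FPKM in AOC3, AOC3-LN, AOC11 and AOC11-LN. The glycolytic enzymes made up most of this, with sums of 8111, 8720, 8264 and 8937 FPKM, while the 10 hypoxia-inducible effectors summed to 317, 260, 219 and 157 FPKM. Of the members, 9 lay in the top 5% of the kept genes in all 4 lines, and 24 lay above the median gene in all 4. On the log2 scale after quantile normalization, 20 of 37 members ranged over less than 1 across the 4 lines, against 71.7% of all genes. The widest ranges were those of Slc16a3 (3.16), Adm (2.94), Ldhb (2.82) and Aldoc (2.40), and the narrowest those of Pfkl (0.22) and Aldoa (0.24).

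**Figure D1:**
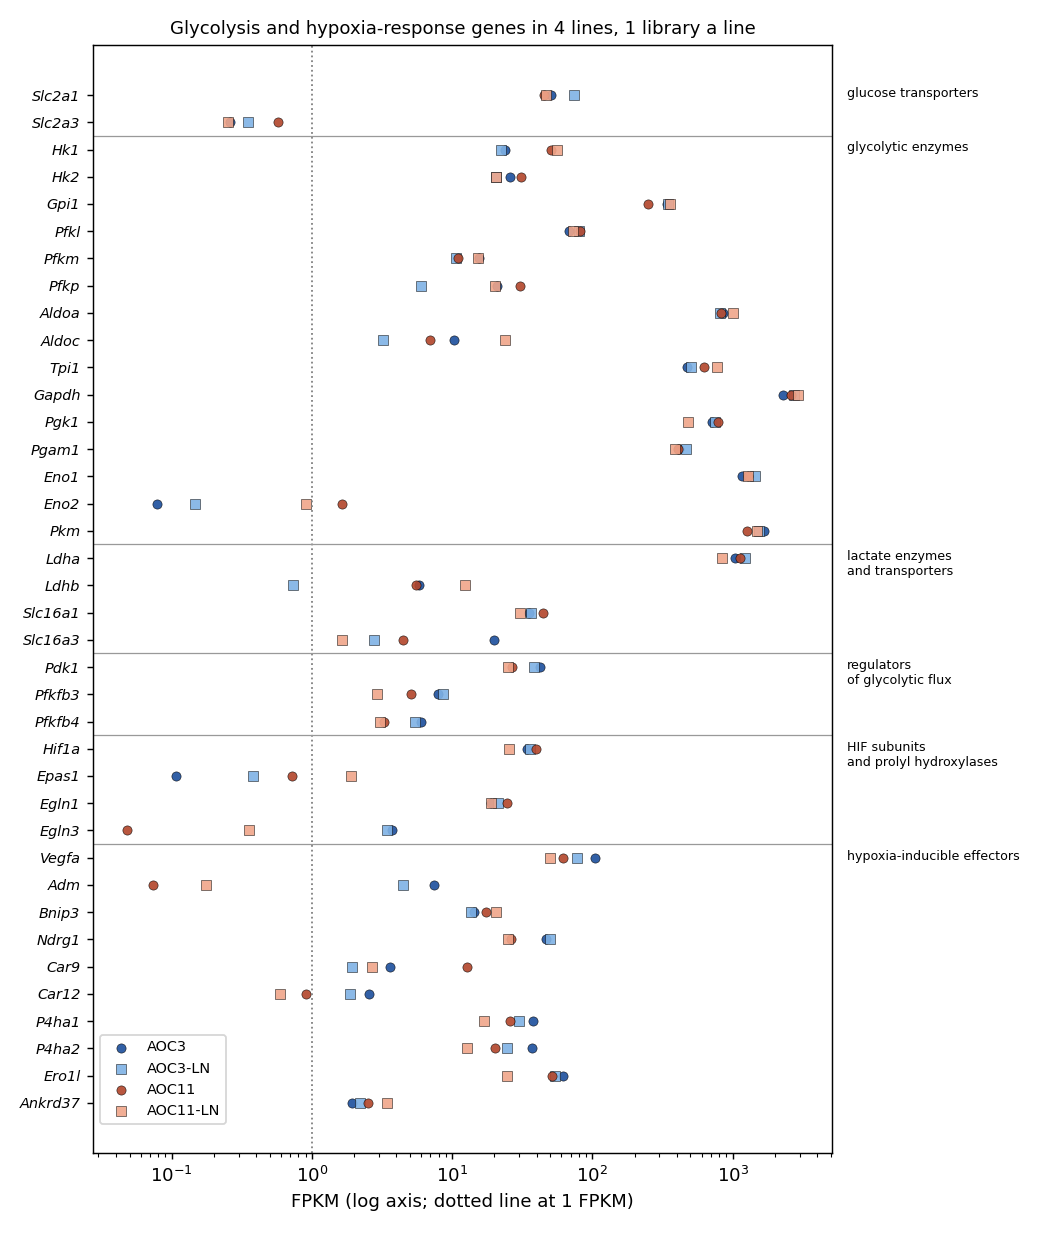
FPKM of each of the 38 genes on a log axis, with 1 point per line (circles for primary lines, squares for lymph node lines; blue for mouse 3, red for mouse 11), grouped by role. The points of Gapdh, Pkm, Eno1 and Aldoa lie close together above 800 FPKM, while those of Adm and Egln3 lie on opposite sides of 1 FPKM in the AOC3 and AOC11 lines.

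Among glucose transporters, Slc2a1 (GLUT1, the basal transporter of most cells) stood at 51.0, 73.9, 45.5 and 46.7 FPKM in AOC3, AOC3-LN, AOC11 and AOC11-LN. Slc2a3 (GLUT3, a high-affinity transporter best known from neurons) stood at 0.260, 0.348, 0.575 and 0.250 FPKM. Slc2a1 therefore accounted for nearly all of the summed FPKM of this pair, and Slc2a3 made up at most 1.25% in any line. Both AOC3 lines had more Slc2a1 than both AOC11 lines, with a log2 difference of 0.45 ± 0.22 (limma SE).

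The hexokinases trap glucose as glucose 6-phosphate. Hk1, the isoform of most tissues, stood at 23.8, 22.2, 50.6 and 56.0 FPKM in AOC3, AOC3-LN, AOC11 and AOC11-LN. Both AOC11 lines were above both AOC3 lines, 2.32-fold by their mean FPKM, while the lymph node and primary lines of a mouse were close. Hk2, the inducible isoform and a HIF target, stood at 25.9, 20.5, 31.1 and 20.5 FPKM, and its groups overlapped. As a result Hk1 made up 47.9% and 52.0% of the summed hexokinase FPKM in the AOC3 lines and 61.9% and 73.2% in the AOC11 lines.

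Of the phosphofructokinase genes, Pfkl (liver type) led in every line with 67.6, 80.5, 82.2 and 73.1 FPKM. Pfkp (platelet type) stood at 20.7, 6.01, 30.4 and 20.2 FPKM in AOC3, AOC3-LN, AOC11 and AOC11-LN. The AOC3-LN line was thus the low one, 3.44-fold below AOC3. Pfkm (muscle type) stood at 15.6, 10.6, 10.9 and 15.3 FPKM. The 3 genes summed to between 97.1 and 124 FPKM, so the family total varied less across lines than Pfkp did. Exons of Pfkp share 748 bases with Pitrm1 on the opposite strand, a gene at 83.0, 78.7, 66.9 and 64.4 FPKM, and its part in the Pfkp values was not tested. The methods name default settings for TopHat2 and Cufflinks, and by default these tools take reads as unstranded although the kit marks the strand.

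Aldolase A, the main form of muscle and most cells, was read from the abundant of its 2 entries, at 858, 809, 821 and 1011 FPKM. The second entry of Aldoa held between 0.957 and 1.93 FPKM. Aldoc, the brain isoform and a hypoxia-inducible gene, stood at 10.2, 3.21, 7.0 and 23.6 FPKM in AOC3, AOC3-LN, AOC11 and AOC11-LN. It was lower in the lymph node line of mouse 3 and higher in that of mouse 11. Its share of the aldolase pair was nevertheless small, between 0.394% and 2.28%.

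Gapdh, the most abundant member, stood at 2305, 2723, 2612 and 2946 FPKM in AOC3, AOC3-LN, AOC11 and AOC11-LN and ranked between 18 and 32 of all entries. Pkm (pyruvate kinase) ranged from 1259 to 1673 FPKM, Eno1 (the general enolase) from 1170 to 1439, Tpi1 (triosephosphate isomerase) from 475 to 773, and Pgk1 (phosphoglycerate kinase) from 477 to 784. Pgam1 (phosphoglycerate mutase) ranged from 387 to 468 FPKM and Gpi1 (glucose phosphate isomerase) from 250 to 358. None of these 7 genes reached a log2 difference of 1 in any of the 3 fold comparisons described below. AOC11-LN had the lowest Pgk1 and the highest Tpi1. Near-identical copies of some of these genes were also listed, with Eno1b at 102 to 146 FPKM, Pgam1-ps2 at 82.3 to 105 and Pgk1-rs7 at 25.9 to 44.4, and whether fragments were split between copies and parents was not tested.

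Eno2, the neuronal enolase, stood at 0.0778 and 0.147 FPKM in AOC3 and AOC3-LN and at 1.63 and 0.912 FPKM in AOC11 and AOC11-LN. Both AOC11 lines were higher, and the AOC3 values stand for about 6.9 and 11 fragments. At these levels Eno2 stayed at or below 0.110% of the summed enolase FPKM. Eno3, the muscle enolase, was the larger minor form with 107, 68.0, 186 and 96.2 FPKM. It was the only gene past a log2 difference of 1 among the 13 tissue-restricted glycolytic isoforms with an entry, with -1.02 in AOC11-LN against AOC11. Only 3 of those isoforms passed the filter, the others being Pfkfb1 at 3.88 to 5.82 FPKM and Pfkfb2 at 4.48 to 7.80 FPKM. The median of the 3 was 0.28 between the mice and -0.78 in mouse 11. The forms Pgk2, Hk3 and Slc2a2 were at or near 0, and Pklr was not analysed here.

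Lactate dehydrogenase was almost wholly of the A form. Ldha, which favors lactate formation, stood at 1035, 1223, 1124 and 836 FPKM in AOC3, AOC3-LN, AOC11 and AOC11-LN. Ldhb, which favors lactate use, stood at 5.81, 0.737, 5.56 and 12.4 FPKM. The primary lines had nearly equal Ldhb, AOC3-LN was 7.88-fold below AOC3, and AOC11-LN was 2.23-fold above AOC11. By the estimated depth, the value in AOC3-LN stands for about 23.9 fragments if the longest coding transcript is taken. Ldhb made up between 0.0602% and 1.46% of the pair.

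The lactate transporters behaved differently from each other. Slc16a1 (MCT1), which carries lactate in both directions, stood at 35.3, 36.4, 44.2 and 30.3 FPKM. Slc16a3 (MCT4), the low-affinity exporter of glycolytic cells and a HIF target, stood at 19.7, 2.78, 4.44 and 1.63 FPKM in AOC3, AOC3-LN, AOC11 and AOC11-LN. Slc16a3 was therefore lower in the lymph node line of each mouse, by 7.09-fold in mouse 3 and 2.73-fold in mouse 11. It made up 35.8% of the summed FPKM of the pair in AOC3 and between 5.10% and 9.12% in the other 3 lines.

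**Figure D2:**
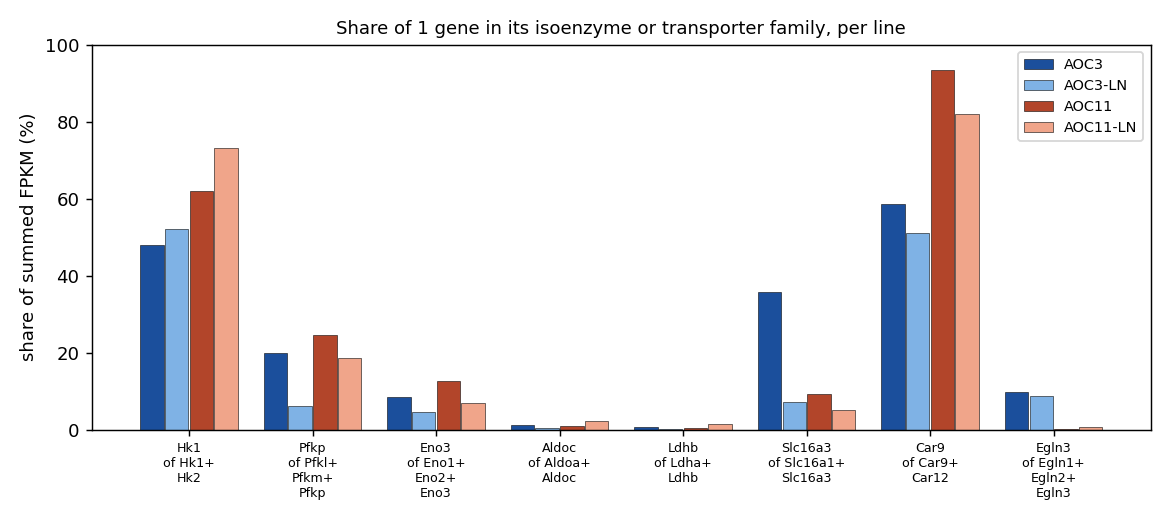
Bars give the share of 1 gene in the summed FPKM of its isoenzyme or transporter family, in percent, for each of the 4 lines (1 library a line, no error bars). Slc16a3 stands at 35.8% in AOC3 against at most 9.12% in the other lines, and Ldhb and Aldoc reach at most 1.46% and 2.28%.

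The 3 regulators of glycolytic flux were all higher in both AOC3 lines than in both AOC11 lines, as were 26.3% of all genes. Pdk1, which shuts pyruvate out of the citric acid cycle by phosphorylating pyruvate dehydrogenase, stood at 42.4, 38.2, 26.5 and 24.8 FPKM. Pfkfb3, which makes the activator fructose 2,6-bisphosphate, stood at 7.95, 8.54, 5.08 and 2.93 FPKM, and its relative Pfkfb4 at 5.96, 5.44, 3.24 and 3.06 FPKM. The median log2 difference of these 3 genes between the AOC3 and AOC11 lines was 0.78.

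Among the HIF subunits, Hif1a stood at 34.1, 35.7, 39.8 and 25.2 FPKM in AOC3, AOC3-LN, AOC11 and AOC11-LN. Epas1 (HIF-2 alpha) stood at 0.107, 0.378, 0.723 and 1.91 FPKM, with both AOC11 lines above both AOC3 lines and about 19.3 fragments in AOC3. Hif1a was thus the main form, and Epas1 made up between 0.313% and 7.03% of the summed FPKM of the pair. HIF alpha subunits are controlled mainly through protein stability, which FPKM values do not measure.

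The prolyl hydroxylases showed the contrast between a steady and a variable gene. Egln1 (PHD2, the main oxygen sensor for HIF-1 alpha) stood at 19, 21.4, 24.4 and 19.1 FPKM. Egln3 (PHD3, itself induced by HIF) stood at 3.73 and 3.45 FPKM in AOC3 and AOC3-LN and at 0.0477 and 0.356 FPKM in AOC11 and AOC11-LN. Both AOC3 lines were far above both AOC11 lines, where the values stand for about 4.0 and 28.9 fragments. With Egln2 counted in, Egln3 made up 9.80% and 8.83% of the summed FPKM of this family in the AOC3 lines and 0.117% and 0.770% in the AOC11 lines.

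Of the secreted hypoxia-inducible factors, Adm (adrenomedullin, a vasodilator peptide) stood at 7.43, 4.46, 0.0735 and 0.176 FPKM in AOC3, AOC3-LN, AOC11 and AOC11-LN. The AOC11 values stand for about 3.0 and 7.0 fragments, against 306 and 155 in the AOC3 lines, so the gene was near the limit of detection in mouse 11. Vegfa, the main growth factor for blood vessels, stood at 104, 77.0, 61.6 and 50.2 FPKM and was the most abundant of the 10 effectors. Its levels did not overlap between the mice, and it was also lower in each lymph node line than in its primary line.

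Ndrg1, a stress-induced gene linked to differentiation, stood at 46.7 and 49.9 FPKM in the AOC3 lines and at 26.2 and 25 FPKM in the AOC11 lines. The lines of a mouse were close and the mice 1.89-fold apart by their mean FPKM. Ndrg1 shares 419 exon bases with the antisense gene Gm17035, which stood at 32.4, 37.1, 15.3 and 20.6 FPKM. The part of Gm17035 in the Ndrg1 values was not tested.

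The collagen prolyl hydroxylase subunits had similar levels in each line. P4ha1 stood at 37.5, 29.9, 25.8 and 16.8 FPKM and P4ha2 at 37.2, 24.6, 20.1 and 12.8 FPKM in AOC3, AOC3-LN, AOC11 and AOC11-LN. Ero1l, an oxidase that supports disulfide bond formation in the endoplasmic reticulum, stood at 61.4, 54.0, 51.8 and 24.7 FPKM.

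The carbonic anhydrases of the cell surface, which buffer the pH around glycolytic cells, had opposite leading lines. Car9 stood at 3.60, 1.94, 12.7 and 2.69 FPKM, so AOC11 was high and the other 3 lines were low. It shares 214 exon bases with the antisense gene Gm12454, at 3.30, 2.58, 0.985 and 1.70 FPKM, whose part in the Car9 values was not tested. Car12 stood at 2.54, 1.85, 0.912 and 0.589 FPKM, with both AOC3 lines above both AOC11 lines. Bnip3, a mitophagy receptor, ranged from 13.7 to 20.5 FPKM and Ankrd37, a small ankyrin repeat protein, from 1.94 to 3.42 FPKM. For Bnip3 and Ankrd37 both AOC11 lines were the higher ones. Bnip3 shares 504 exon bases with the antisense gene Gm45507, at 8.34, 7.57, 7.71 and 10.2 FPKM, and Ankrd37 shares 57 with Ufsp2 on the opposite strand, at 30.6, 30.8, 34.9 and 25.4 FPKM. Their part in these values was not tested.

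For the comparison of the mice, log2(FPKM + 1) was quantile-normalized and averaged over the 2 lines of each mouse, and the AOC11 mean was taken from the AOC3 mean. This scale understates the change of genes at low level, and genes beyond 1 or -1 on it were counted. Gene positions are in mm10. In this comparison 4 of 37 members were higher in the AOC3 lines, against 5.1% of the 14165 genes tested, and 2 were lower, against 6%. The higher members were Adm (ENSMUSG00000030790.15, chr7:110627661-110629820) at 2.65 ± 0.30 (limma SE), Egln3 (ENSMUSG00000035105.5, chr12:54178981-54203860) at 2.02 ± 0.27, Slc16a3 (ENSMUSG00000025161.16, chr11:120948480-120960868) at 1.37 ± 0.87 and Pfkfb3 at 1.03 ± 0.33. With a pseudocount of 0.1, Adm was at 4.86 and Egln3 at 3.98. The lower ones were Ldhb at -1.38 ± 0.71 and Hk1 at -1.11 ± 0.17. These counts are close to the share of all genes for the lower members and above it for the higher ones by only a few genes. Without quantile normalization the split was 3 higher and 5 lower, against 4.47% and 6.71% of genes, and with a pseudocount of 0.1 it was 5 and 6, against 8.81% and 9.74%. Leaving out AOC3 gave 3 and 5 (6.23% and 7.58% of genes), AOC3-LN 4 and 3 (5.15% and 5.13%), AOC11 7 and 4 (6.41% and 7.28%) and AOC11-LN 2 and 4 (6.38% and 6.32%). The primary lines alone gave 3 and 3 (6.25% and 5.69%) and the lymph node lines alone 6 and 4 (7.58% and 8.69%).

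Slc16a3 and Ldhb overlapped between the mice, and each was inside the threshold when either of 2 lines was left out. Slc16a3 was 0.20 without AOC3, 0.76 without AOC11-LN and 0.82 in the lymph node lines alone. Ldhb was -0.44 without AOC3-LN, -0.88 without AOC11-LN and 0.06 in the primary lines alone. Adm, Egln3 and Hk1 kept a log2 difference beyond 1 in the primary lines alone and in the lymph node lines alone, at 2.94 and 2.37 for Adm, 2.12 and 1.92 for Egln3 and -1.0 and -1.22 for Hk1. For Pfkfb3 the primary lines gave 0.55 and the lymph node lines 1.51, and it was also inside the threshold without AOC3-LN (0.93), without AOC11-LN (0.65), without quantile normalization (0.92) and with scaling to the same median (0.99).

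Both AOC3 lines were above both AOC11 lines for 14 of 37 members, against 26.3% of all genes, and the reverse held for 6, against 26.7%. The 14 were Slc2a1, Pgam1, Pkm, Pdk1, Pfkfb3, Pfkfb4, Egln3, Vegfa, Adm, Ndrg1, Car12, P4ha1, P4ha2 and Ero1l, and the 6 were Hk1, Tpi1, Eno2, Epas1, Bnip3 and Ankrd37. Of the 14, Adm, Egln3 and Car12 passed the filter only through the AOC3 lines. Of the 6, Eno2 and Epas1 passed it only through an AOC11 line. The filter therefore favored the direction of these genes, which are no separate support for it. Over the 37 members the median log2 difference was 0.18, against 0.01 over all genes. Without AOC11-LN the median of the members was 0.07, against 0 over all genes. In the primary lines alone it was 0.06, against -0.02, and in the lymph node lines alone 0.30, against 0.03. Over the 10 hypoxia-inducible effectors, of which 7 were above 0, Adm and Car12 among them, the median with all 4 lines was 0.73. Over the 15 glycolytic enzymes it was -0.03, with 7 above 0, against 50.8% of all genes.

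limma, which took both lines of a mouse as replicates, called 0 of 37 members at an adjusted p under 0.05, against 0.205% of genes. At an unadjusted p under 0.05 it found 12 members, against 18.7% of genes. With no filter on low values it found 6 of 38 members, against 4247 of 34721 genes. With the filter of 5 FPKM it found 8 of 32, against 2010 of 10565. In the main fit the lowest adjusted p among the members were those of Adm (0.0653), Egln3 (0.0812), Hk1 (0.0943) and Ndrg1 (0.102). With the test limited to protein-coding genes, Adm, Egln3 and Hk1 passed, with adjusted p of 0.0231, 0.0359 and 0.0442, and so did 2.25% of all 11380 genes in that fit. Of the 12 members at an unadjusted p under 0.05, Adm, Egln3 and Car12 were under 1 FPKM in both AOC11 lines. They passed the filter only through the AOC3 lines, and Eno2 passed it only through AOC11. Adm and Hk1 had a limma value under 12 alternatives and Egln3 under 11. Across these the adjusted p ranged from 0.0231 to 0.359 for Adm, from 0.0359 to 0.411 for Egln3 and from 0.0442 to 0.562 for Hk1. The fit describes these lines, and an exact permutation test of 2 against 2 lines cannot go below p = 0.333.

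**Figure D3:**
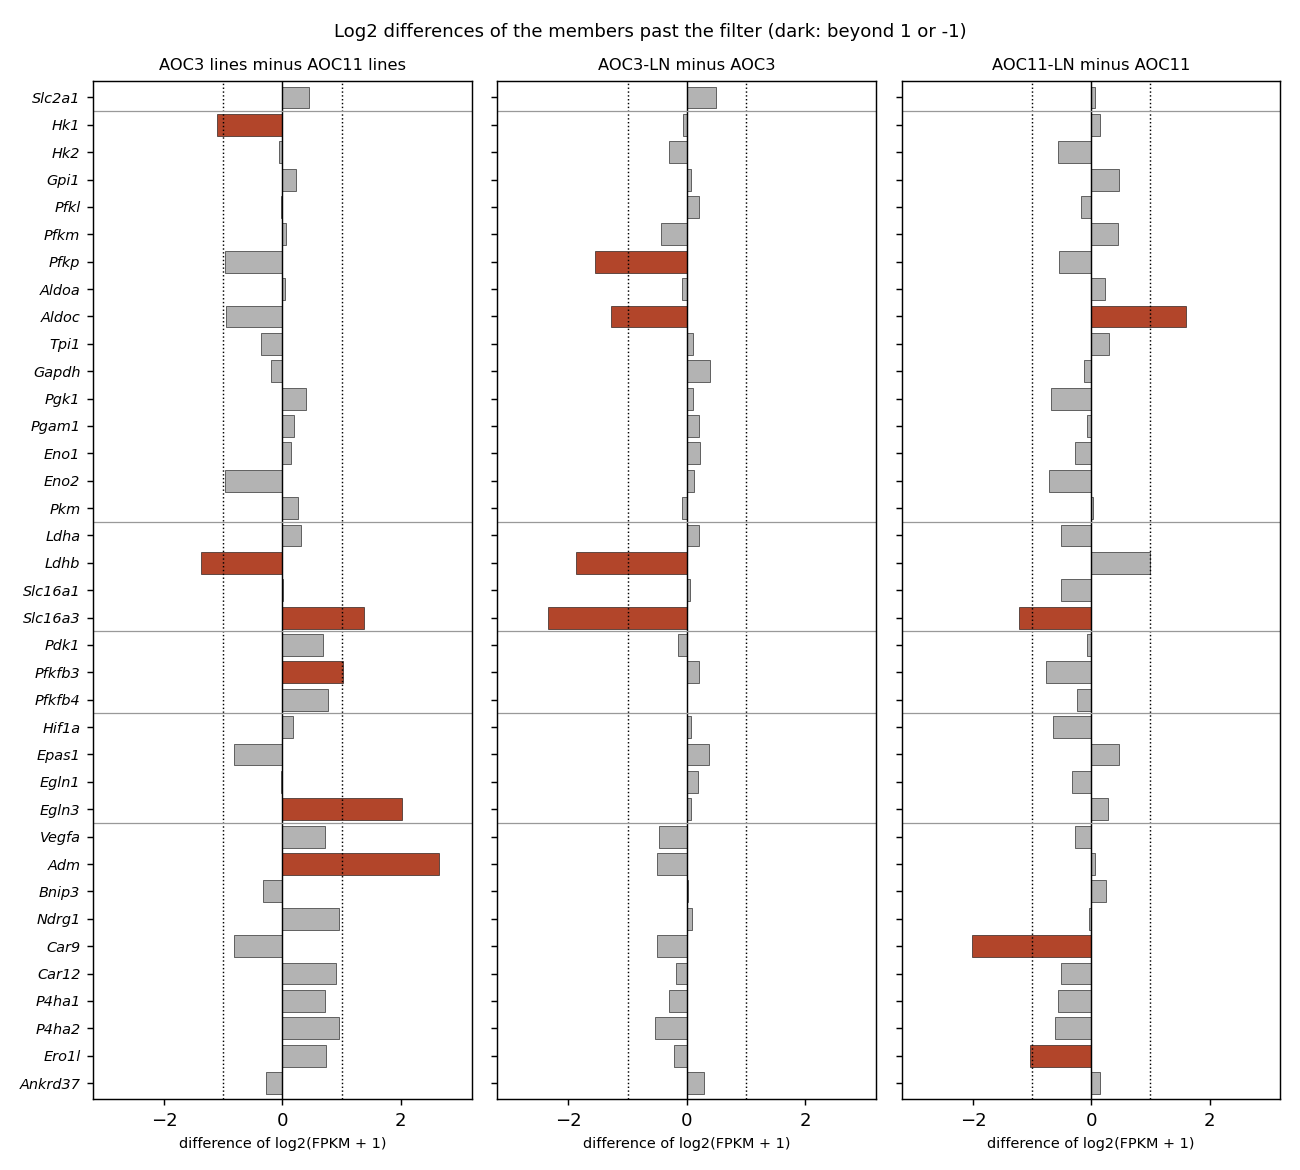
Differences of log2(FPKM + 1) after quantile normalization for the 37 genes past the filter, in 3 panels for the AOC3 lines minus the AOC11 lines, AOC3-LN minus AOC3, and AOC11-LN minus AOC11. Dark bars lie beyond 1 or -1: Adm reaches 2.65 between the mice, Slc16a3 is at -2.35 and -1.23 in the lymph node lines, and Aldoc is at -1.28 in mouse 3 and 1.60 in mouse 11.

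Within each mouse, the lymph node line was set against the primary line. Here 1 library stands on each side, so there is no replicate check. In mouse 3, 0 of 37 members were higher in AOC3-LN by more than 1 on the log2 scale, against 2.11% of genes, and 4 were lower, against 3.42%. These were Slc16a3 at -2.35, Ldhb at -1.88, Pfkp at -1.56 and Aldoc at -1.28. Beyond these 4, the members lay between -0.54 (P4ha2) and 0.49 (Slc2a1).

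In mouse 11, 1 of 37 members was higher in AOC11-LN, against 4.97% of genes, and 3 were lower, against 3.14%. Aldoc was higher by 1.60, with Ldhb just inside the threshold at 1.0. Car9 was lower at -2.01, Slc16a3 at -1.23 and Ero1l at -1.03. Without quantile normalization the split was 2 higher and 3 lower, against 6.44% and 2.61% of genes. The median over the 37 members was -0.18 in mouse 11, against -0.02 over all genes, and 0.03 in mouse 3, against 0.02. Without quantile normalization it was -0.08 in mouse 11, against 0.04, and -0.08 in mouse 3, against -0.03. Over the 10 effectors the medians after quantile normalization were -0.40 in mouse 11 and -0.26 in mouse 3. In each mouse 3 of 10 were above 0, against 47.7% of genes in mouse 11 and 53.0% in mouse 3.

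Slc16a3 was the member past the threshold in both lymph node lines in the same direction. Aldoc passed it in both, in opposite directions. limma with mouse as a block compared the lymph node with the primary lines and called 0 members at an adjusted p under 0.05, against 0.0141% of genes. At an unadjusted p under 0.05 it found 4 members, Slc16a3, Pfkp, Car9 and P4ha2, against 2.86% of genes. Their estimates were -1.79 ± 0.39 (limma SE), -1.05 ± 0.32, -1.26 ± 0.45 and -0.58 ± 0.22, and the adjusted p was 0.999 for each.

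Genes of neighboring pathways were read from lists. limma called 0 genes of these 6 lists between the AOC3 and AOC11 lines at an adjusted p under 0.05, against 0.205% of all genes. Unadjusted p under 0.05, found for 18.7% of all genes, were those of 0 of 3 tissue-restricted isoforms, 2 of 6 genes of gluconeogenesis and bypass routes and 1 of 10 HIF pathway regulators. They were also found for 5 of 23 further hypoxia-inducible genes, 5 of 29 genes of pyruvate dehydrogenase and the citric acid cycle, and 2 of 8 of the pentose phosphate pathway.

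Of 23 further hypoxia-inducible genes past the filter, out of 24, 3 were higher in the AOC3 lines by more than 1 (5.1% of all genes were) and 3 were lower (6%), with a median of 0.11 against 0.01 over all genes. Gbe1, the glycogen branching enzyme, stood at 22.0 and 16.1 FPKM in the AOC3 lines and at 7.14 and 4.58 in the AOC11 lines. In AOC3-LN 0 were higher and 6 lower, against 2.11% and 3.42% of all genes, with a median of -0.33. In AOC11-LN 3 were higher and 5 lower, against 4.97% and 3.14%, with a median of -0.20. Lox, a collagen cross-linking enzyme, stood at 1.39, 0.0409, 1.66 and 0.0537 FPKM, so that it was close to 0 in both lymph node lines. Vldlr, a lipoprotein receptor, stood at 2.80, 2.43, 0.338 and 3.27 FPKM, with AOC11 as the low line.

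Among 10 HIF pathway regulators past the filter, out of 12, Arnt was the gene past the threshold. Arnt, the beta subunit that pairs with HIF alpha, stood at 8.33, 4.45, 19.7 and 19 FPKM and was lower in both AOC3 lines, with a log2 difference of -1.43. Egln2 stood at 15.3, 14.3, 16.2 and 26.9 FPKM, Rbx1 at 84.0, 81.3, 75.9 and 127, and Hif1an, which hydroxylates HIF alpha at an asparagine, at 9.62, 8.88, 7.07 and 11.9. These 3 were highest in AOC11-LN. The median of the list was -0.08 between the mice, -0.06 in mouse 3 and -0.01 in mouse 11.

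The routes that lead away from glycolysis held single genes with large differences. In the pentose phosphate pathway, whose 8 genes all passed the filter, G6pdx, the entry enzyme, stood at 188, 235, 76.3 and 65.3 FPKM and Taldo1, transaldolase, at 55.1, 65.2, 150 and 203 FPKM. The log2 difference between the mice was 1.58 for G6pdx and -1.50 for Taldo1, and the median of the list was -0.15. Pgls stood at 79.6 to 137 FPKM and Rpia at 41.5 to 79.7 FPKM, both highest in AOC11-LN.

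Of 6 genes of gluconeogenesis and glycolytic bypass past the filter, out of 10, Bpgm, which makes 2,3-bisphosphoglycerate, stood at 3.66, 5.59, 16.7 and 16.5 FPKM, a log2 difference of -1.60 between the mice. Pck2, the mitochondrial carboxykinase, stood at 31.6, 21.2, 16.8 and 44.0 FPKM and was higher in AOC11-LN by 1.38. G6pc3, the general glucose 6-phosphatase, stood at 19.8 to 42.4 FPKM, highest in AOC3-LN, and Pgm2 at 15.3 to 26.7 FPKM. Fbp1 was listed at 0 in all 4 lines, and G6pc was not analysed here. The medians of the list were -0.08 between the mice, 0.27 in mouse 3 and 0.08 in mouse 11.

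Of 29 genes of pyruvate dehydrogenase and the citric acid cycle past the filter, out of 30, 0 were higher and 1 was lower in the AOC3 lines, against 5.1% and 6% of all genes. That gene was Pcx, pyruvate carboxylase, at 1.49, 2.03, 4.86 and 5.69 FPKM. Pdk2, a further pyruvate dehydrogenase kinase, stood at 3.24, 1.25, 0.874 and 4.77 FPKM and was higher in AOC11-LN by 1.38. Pdha1, the catalytic subunit that Pdk1 phosphorylates, stood at 39.5, 39.7, 102 and 63.4 FPKM, and Mpc1, of the mitochondrial pyruvate carrier, at 13.7, 16.3, 39.2 and 23.1 FPKM. Both were higher in both AOC11 lines than in both AOC3 lines, as were 26.7% of all genes. The medians of the list were 0.10 between the mice, -0.12 in mouse 3 and -0.13 in mouse 11.

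HIF binds a short element with the core ACGTG or GCGTG, so the 250 bases before the start of each member were searched for both, on both strands, in RefSeq promoters (build GRCm38.p6). Of the 38 members, 35 had 49 windows, and Slc2a3, Epas1 and Ndrg1 had none in the table. ACGTG was found in 24 of the 49 windows, against 16.6% of all 32851 promoters, and GCGTG in 27, against 28.2%. At least 1 core stood in 39 windows, against 38.6% of all promoters. Some windows of the same gene overlap, as for Eno1, Aldoa and Pfkm, so the same site can be counted more than once. Some windows also overlap annotated exons. Base composition was not matched between the members and all promoters, and its part in these shares was not tested. Some of the members were chosen because low oxygen induces them, so they are no neutral sample of promoters.

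Sequences are printed for Adm and Egln3, which differed most between the mice, and for Ldha and Ldhb, the abundant and the minor lactate dehydrogenase, as the 250 bases before the start, 5′ to 3′ on the strand of the gene. Capitals mark the cores on either strand, where the other strand shows the first core as CACGT and the second core as CACGC. A run of CACGTG therefore holds the first core on both strands. None of these windows overlaps an exon annotated in GENCODE M21. The windows are Adm at chr7:110627407-110627656 (plus strand), Egln3 at chr12:54203875-54204124 (minus strand), Ldha at chr7:46845554-46845803 (plus strand, the first of 2 starts) and Ldhb at chr6:142507958-142508207 (minus strand).
Adm: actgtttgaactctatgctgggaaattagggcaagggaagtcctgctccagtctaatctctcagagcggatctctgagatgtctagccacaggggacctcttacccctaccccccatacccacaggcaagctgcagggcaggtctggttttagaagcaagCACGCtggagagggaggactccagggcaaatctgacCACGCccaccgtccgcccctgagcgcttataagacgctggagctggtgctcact
Egln3: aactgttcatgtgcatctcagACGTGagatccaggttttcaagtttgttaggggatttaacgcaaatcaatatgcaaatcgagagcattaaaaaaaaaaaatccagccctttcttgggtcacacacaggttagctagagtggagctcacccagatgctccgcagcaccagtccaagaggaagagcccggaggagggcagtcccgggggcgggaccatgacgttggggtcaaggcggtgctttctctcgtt
Ldha: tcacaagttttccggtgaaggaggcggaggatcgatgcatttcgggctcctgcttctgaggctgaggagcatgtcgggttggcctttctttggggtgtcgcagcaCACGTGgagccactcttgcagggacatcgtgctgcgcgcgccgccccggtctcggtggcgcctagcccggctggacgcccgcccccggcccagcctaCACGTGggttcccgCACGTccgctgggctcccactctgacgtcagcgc
Ldhb: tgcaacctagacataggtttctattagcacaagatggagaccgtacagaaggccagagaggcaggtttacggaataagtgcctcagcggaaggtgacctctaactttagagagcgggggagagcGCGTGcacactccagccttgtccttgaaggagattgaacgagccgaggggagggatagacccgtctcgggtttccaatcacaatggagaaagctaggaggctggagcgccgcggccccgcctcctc
Adm held 2 GCGTG cores, Egln3 1 ACGTG core, and Ldhb 1 GCGTG core. Ldha held 5 ACGTG matches counted over both strands, from 2 palindromes and a single core. Hk1, higher in the AOC11 lines, held 0 cores in the window of its first start and 3 in that of its second. In that second window 186 of the 250 bases lie in annotated exons. A match to these letters is a description of the sequence and no measure of binding in these cells.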

How the data were processed

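RNA of 4 cell lines was sequenced with 1 library per line. Per the submitters' processing notes and the study's methods, reads were trimmed with Trim Galore, mapped to mm10 with TopHat2 and summarized with Cufflinks on GENCODE M21; tool versions are not given in the sources used here. The authors deposited FPKM values per gene, without the log2 transformation and quantile normalization named in the methods. These values were used as deposited, and no count test was run. Symbols, positions and exons came from GENCODE M21.

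A pseudocount of 1 was added, and log2 values of the 34721 entries were brought to the same quantiles. The filter kept the 14165 genes that reached 1 FPKM in some line. Log2 differences beyond 1 or -1 were counted for the mean of the AOC3 lines less that of the AOC11 lines, and for each lymph node line less its primary line. limma 3.58.1 (R 4.3.3; lmFit, then eBayes with trend; Benjamini-Hochberg adjustment over all kept genes) compared the mice, with both lines of a mouse as replicates, and the sites, with mouse as a block because both lines of a pair come from the same animal. No p-value was computed between single libraries. Scripts were checked on simulated data. Python 3.11.15 with pandas 2.3.3 made the tables.

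Depth was estimated from single-transcript genes longer than 800 bases. With the fitted depth and length offset, 63.4% to 67.0% of low values came within 0.1 of a whole number of fragments. Evenly spread values without a fit would give 20%. Depth and offset were fitted to bring these same values near whole numbers, so the share is no independent check. Estimated fragments assume the longest coding transcript.

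Members and lists were chosen with earlier results of these data known. Every member is accounted for. Levels in every line are given for members with a log2 difference above 1 or below -1 in any fold comparison, for isoenzyme and transporter pairs and for the most abundant member of each role. Of each list of related genes, up to 4 of the genes with the largest absolute log2 differences are named. Genes given for shared exons or as copies, list genes listed at or near 0, and the 4 printed sequences, were chosen after their values were seen. Alternatives were a pseudocount of 0.1, no quantile normalization, scaling to the same median, no filter, a filter of 5 FPKM, protein-coding genes alone, a 1.5-fold threshold, leaving out each line, primary or lymph node lines alone, site as a block, no block and no trend. Comparisons made by the authors were not used.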

Additional observations from a re-analysis of the deposited data

Results flagged for a closer look

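Aldoc, the brain aldolase, was past a log2 difference of 1 in opposite directions in the lymph node lines of the 2 mice. It was lower in AOC3-LN than in AOC3 (-1.28, from 10.2 to 3.21 FPKM) and higher in AOC11-LN than in AOC11 (1.60, from 7.0 to 23.6 FPKM), so the shifts lay 2.89 apart on the log2 scale. With 1 library per line this difference was not tested. Ldhb had the same pattern, with -1.88 in mouse 3 and 1.0 in mouse 11, just inside the threshold in the latter.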

How the results depend on the processing

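Members past the fold threshold between the AOC3 and AOC11 lines numbered 6, and 19 at a 1.5-fold threshold. With a pseudocount of 0.1 there were 11, where 8.81% of all genes were higher and 9.74% lower. The lymph node lines alone gave 10, where 7.58% of all genes were higher and 8.69% lower. Leaving out each line in turn gave between 6 and 11 at the main threshold. The share of all genes past 1.5-fold is not given for any comparison, so the counts at 1.5-fold cannot be set against it. In AOC11-LN against AOC11 the count was 4, with 8 under the pseudocount of 0.1 and 10 at 1.5-fold. Under that pseudocount 8.46% of all genes were higher in AOC11-LN and 6.18% lower. In AOC3-LN against AOC3 the count of members was 4 or 5. The 5 were found under that pseudocount, where 3.76% of all genes were higher in AOC3-LN and 6.42% lower. Between the mice limma called 29 genes, 0 with no filter on low values (4247 at an unadjusted p under 0.05), 50 with the filter of 5 FPKM and 256 with protein-coding genes alone, where 3 members were called in place of 0. The cause was not tested. Leaving out a line gave 0 genes each time (1124 to 2925 at an unadjusted p under 0.05), where the lone line is assumed to vary like the other pair. Site as a replicate block gave 31 genes and 0 members. Between the sites limma called 2 genes, and 0 with no filter (1204 unadjusted) or with protein-coding genes alone (325 unadjusted). With no replicate block it called 2 genes and 0 members. The blocked site fit without a line could not be fitted, since 3 lines leave no residual degrees of freedom, and was not run. Of 14 member differences past 1, giving 119 values under the alternatives, 108 kept their side of the threshold and 10 were weaker in the same direction. No filter, the filter of 5 FPKM and protein-coding genes alone could not change these differences, since normalization over all entries came first. They gave 14, 13 and 14 of the 108. The pseudocount of 0.1 made each of the 14 differences larger and gave 14 more of the 108, so it was no strict check either. Ldhb between the mice reversed to 0.055 in the primary lines alone. Without replicate libraries, depth limits Adm and Egln3 in the AOC11 lines, Eno2 in the AOC3 lines, Epas1 in AOC3 and Ldhb in AOC3-LN to few fragments.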
